A study of Mus musculus with 4 samples.

Results

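The Rab GTPases are small membrane-bound switches that direct vesicle traffic. All gene names in the deposited tables made of Rab, a number and at most a letter and a digit were taken, which gave 57 genes of 23337 names. Cells labelled as liver macrophages (Kupffer cells) were sorted for RNA sequencing from Lyz2cre-RosaYFP mice of both sexes, 6 to 8 weeks old, as 2 libraries of YFP+ and 2 of YFP− cells. All 4 libraries carry the same alleles: Cre recombinase is made from the lysozyme gene Lyz2 and turns on a Rosa allele for YFP, a yellow fluorescent protein, so that YFP marks a cell that, or whose precursor, made Cre. In each group 1 library has a title starting with M and the other with FM, and neither the meaning of these starts is stated, nor whether libraries came from separate animals, nor whether animals were pooled. The p-values below therefore measure the spread between these libraries, which may be technical. In the fit to the deposited values the prior degrees of freedom were infinite, so each SE and p used the spread typical of a gene's level. The gene's own spread between libraries did not enter them. Levels are TPM, a measure of transcript abundance scaled for gene length and library size. A change is the mean log2(TPM + 1) of YFP+ libraries less that of YFP− libraries, a scale on which changes of low genes come out too small.

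A Rab protein is bound to GTP when active and to GDP when inactive. Exchange factors load GTP onto it at a given membrane, effectors bind the GTP form to tether, move or fuse vesicles, and GTPase-activating proteins end the signal. The GDP form is extracted from the membrane by GDP dissociation inhibitors, and a lipid tail added by Rab escort protein and geranylgeranyl transferase holds the protein on the membrane. In macrophages Rab5 marks early endosomes and phagosomes, Rab7 the late endosomes and maturing phagosomes that fuse with lysosomes, and Rab1, Rab2 and Rab6 the traffic of the endoplasmic reticulum and Golgi.

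The libraries differed in more than the reporter. Kupffer cell markers (12 genes) summed to 33452 to 34893 TPM in the YFP+ and 6193 to 12749 TPM in the YFP− libraries, with none of them at 0 in any library. Microglia markers (12 genes) summed to 147 to 1383 TPM in YFP+ and 20308 to 22408 TPM in YFP− libraries, so in the latter they exceeded the Kupffer cell markers although the labelled tissue is liver. Of the 12 microglia markers 12 were called lower in YFP+ libraries, and of the 12 Kupffer cell markers 5 were called higher. The endothelial markers (9 genes) summed to 55.1 to 145 against 1206 to 1369 TPM, and the oligodendrocyte markers (7 genes) to 27.1 to 106 against 739 to 846 TPM. Hepatocyte markers (8 genes) summed to 299 to 622 against 1331 to 2055 TPM, astrocyte markers (6 genes) to 5.73 to 34.4 against 182 to 201, and platelet markers (6 genes) to 10.8 to 35.8 against 66.8 to 114. Much of the hepatocyte sum was Ttr, at 55.5 and 51.9 TPM in YFP+ M and FM against 1053 and 830 in YFP− M and FM. Ttr was the only 1 of 7 tested hepatocyte markers called lower. Apoa1 was higher in YFP+ M and FM, at 48.8 and 153 TPM against 47.9 and 44.7 in YFP− M and FM. Lymphocyte markers (8 genes) reached 159 to 598 against 784 to 1529 TPM, and neutrophil markers (6 genes) overlapped, at 1431 to 6833 against 1956 to 3521 TPM. Neuron markers summed to 3.02 to 7.05 against 16.8 to 23.3 TPM over 10 genes, with Syt1 and Nefm listed at 0 in both YFP+ libraries. Of 5 tested neuron markers 2 were called lower. The part of these other transcripts in the Rab values below was not tested, and in bulk RNA fewer cells of a type and less RNA per cell cannot be told apart. The number of genes with 1 TPM or more was 7386 and 10302 in YFP+ and 12434 and 12829 in YFP− libraries. Mean coverage at 1 FPKM, the only measure of depth in the files, ranged from 2.59 to 9.19 reads per base.

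Rab transcripts were present in all 4 libraries and a few genes made up much of them. The 57 genes summed to 1823 TPM in YFP+ M and 1152 in YFP+ FM, against 2271 in YFP− M and 3144 in YFP− FM. The groups did not overlap, with both YFP+ sums lower. The 5 most abundant genes of each library took 56.4% and 76.1% of the sum in YFP+ M and FM, against 41.5% and 47.5% in YFP− M and FM. Rab7, Rab5c and Rab32 were among these 5 in every library, while Rab20 was among them only in the YFP+ libraries and Rab1 only in the YFP− libraries. The filter of at least 1 TPM in at least 2 libraries was passed by 45 of the 57. A gene below 1 TPM in both YFP+ libraries can pass only through both YFP− libraries, so its direction is then fixed.

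On the deposited values none of the 45 tested Rab genes was called higher in YFP+ libraries and 10 were called lower by limma with Benjamini-Hochberg adjustment at 0.05. At an unadjusted p under 0.05, 0 were higher and 18 lower. Over all 12251 tested genes 39.5% were called lower and 0.522% higher, so the 22.2% of Rab genes called lower lay under the background share. The median change of the tested Rab genes was -1.79, beside -1.73 for all tested genes, and 21 of the 45 lay above the latter value. Since a typical gene lay that far below 0, each change on the deposited values below is to be read against that median of -1.73. Under quantile normalization, which gives every library one distribution of values, the median of all genes moved to -0.03 and 1 Rab gene was called higher and 1 lower (background 1.21% and 1.67%). Median-ratio scaling called 5 higher and 1 lower (background 5.62% and 5.9%), and cyclic loess 1 higher and 0 lower (background 0.531% and 0.327%, with 5 higher and 2 lower at an unadjusted p under 0.05). The sign also turned with the scaling: of the 42 Rab genes with a change below 0 on the deposited values, 30 lay above 0 under at least 1 of the other 3 scalings and 19 under all 3. Leaving out single libraries moved the 10 lower calls to 30 without YFP+ M and to 1 without each of the other 3 in turn. Without YFP+ M this is 66.7% of the Rab genes beside 67.5% of all tested genes, and the other omissions called 11.5%, 7.06% and 7.56% of all genes lower, beside 2.22% of Rab genes each.

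**Figure D1:**
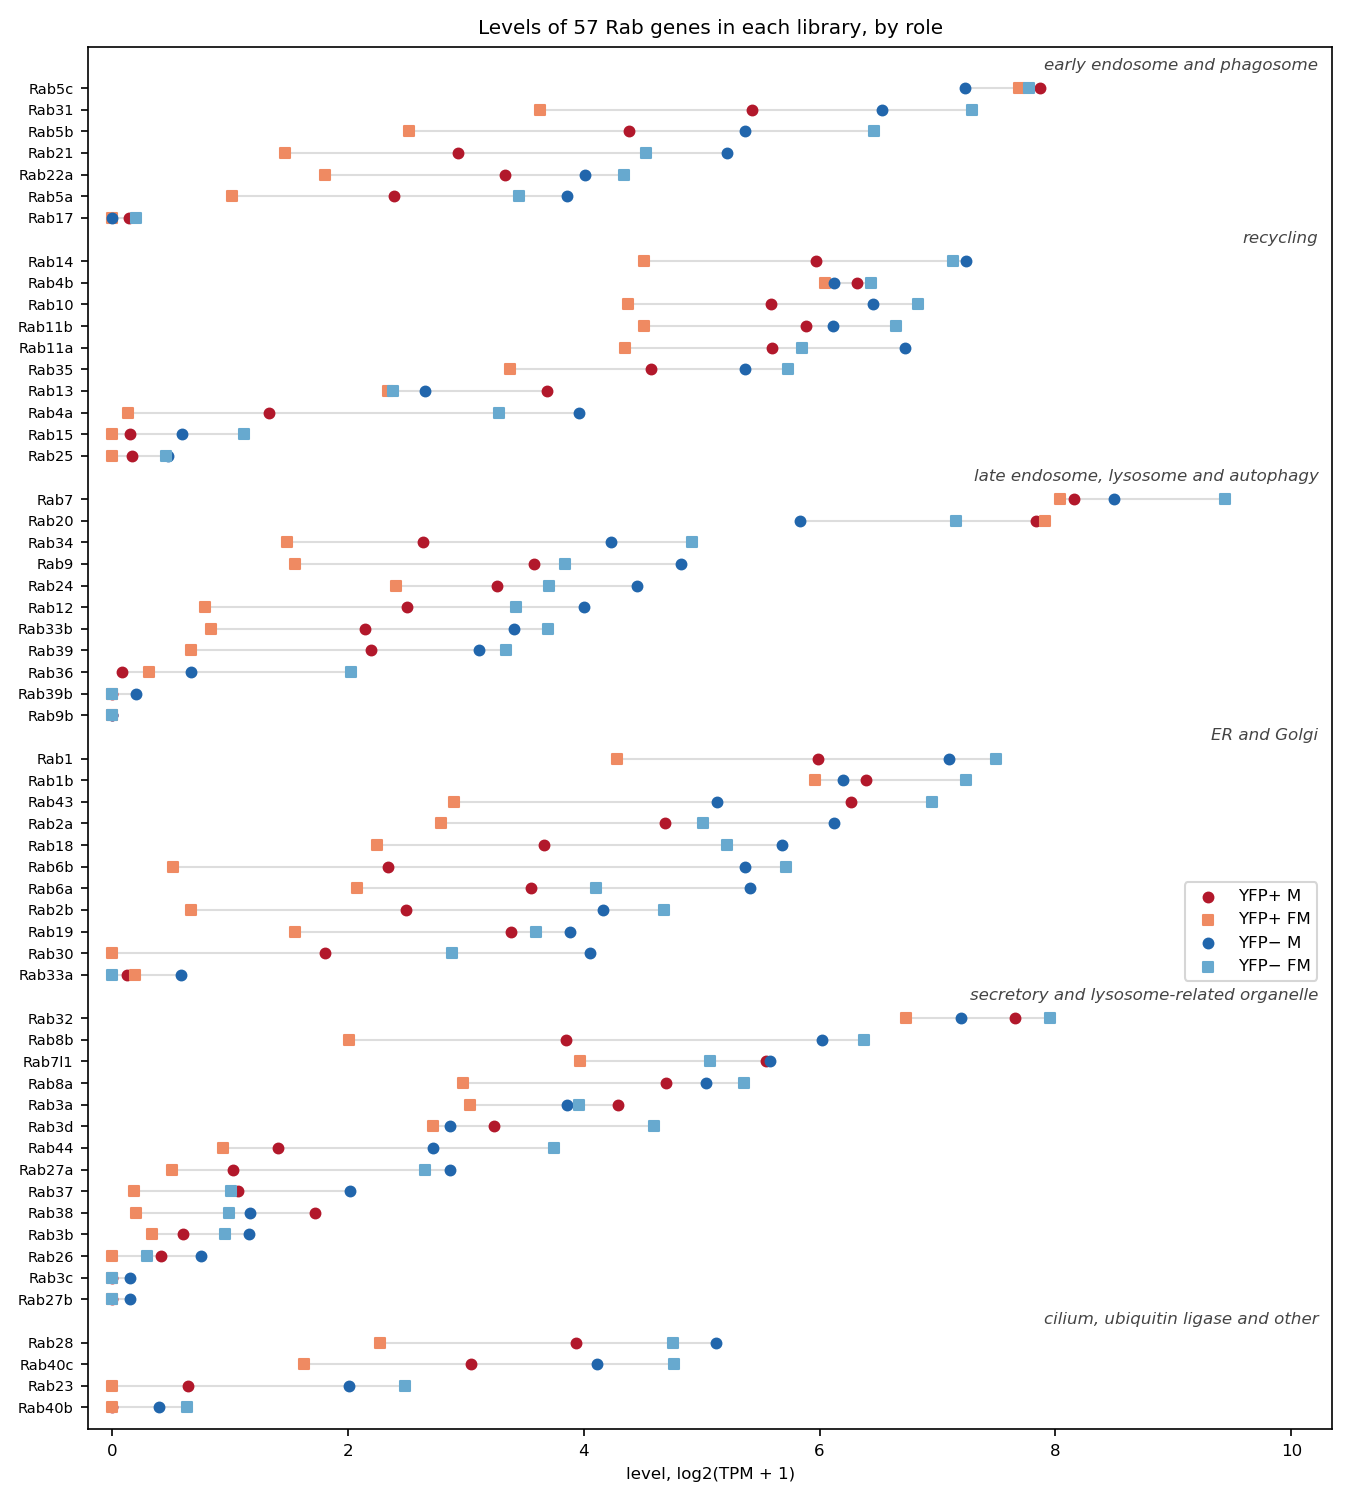
Level of each of the 57 Rab genes on a log2(TPM + 1) axis, 1 point per library (red and orange YFP+, blue YFP−; circles M, squares FM), grouped by role. In most rows the blue points lie to the right of the red ones, while Rab20 shows the opposite order and Rab5c, Rab4b, Rab32 and Rab13 show mixed order.

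Of the Rab genes of early endosomes and phagosomes, 2 of 6 tested were called lower (33.3%, beside 39.5% of all tested genes). Their median change was -2.17. Rab5c (chromosome 11, 100715266 to 100738130), which with its paralogs drives fusion of early endosomes, stood at 233 TPM in YFP+ M and 205 in YFP+ FM, against 149.7 in YFP− M and 219 in YFP− FM. The groups overlapped and the change was 0.27, SE 0.88, adjusted p = 0.794, while median-ratio scaling called it higher (2.56, adjusted p = 0.0419). Positions are those of the deposited tables, and they overlap RefSeq's GRCm38.p6 positions for all 57 genes. Rab5b stood at 19.9 TPM in YFP+ M and 4.72 in YFP+ FM, against 40.3 in YFP− M and 87.3 in YFP− FM (-2.47, SE 1.08, adjusted p = 0.0546). Rab5a stood at 4.25 TPM in YFP+ M and 1.02 in YFP+ FM, against 13.5 in YFP− M and 9.95 in YFP− FM (-1.95, SE 1.05, adjusted p = 0.112). Neither passed the test, although both YFP+ values of each lay below both YFP− values. That order was seen in 33 of the 45 Rab genes, beside 79.7% of all tested genes. Rab31, which carries cargo between the Golgi and endosomes, fell, at 42.0 TPM in YFP+ M and 11.4 in YFP+ FM, against 91.2 in YFP− M and 156 in YFP− FM (-2.38, SE 1.01, adjusted p = 0.0479). Rab21, a regulator of integrin uptake, also fell, at 6.65 TPM in YFP+ M and 1.77 in YFP+ FM, against 36.1 in YFP− M and 22.1 in YFP− FM (-2.67, SE 1.15, adjusted p = 0.0499), close to the threshold. Neither call remained under quantile normalization (0.385 and 0.519 as adjusted p). Rab22a, of early and recycling endosomes, had a change of -1.61 (adjusted p = 0.227).

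Recycling Rab genes return cargo from endosomes to the cell surface. Of 8 tested, 1 was called lower (12.5%, beside 39.5% of all tested genes), and the median change was -1.44. Rab4a, of fast recycling, fell and was at 1.51 TPM in YFP+ M and 0.101 in YFP+ FM, against 14.6 in YFP− M and 8.71 in YFP− FM (-2.89, SE 0.87, adjusted p = 0.00639). The call of Rab4a did not remain under quantile normalization (adjusted p = 0.204), median-ratio scaling (0.0525) or loess (0.315). Its paralog Rab4b stood at 78.5 TPM in YFP+ M and 65.0 in YFP+ FM, against 68.6 in YFP− M and 85.7 in YFP− FM, with overlapping groups (-0.10, SE 0.98, adjusted p = 0.932), and was called higher under median-ratio scaling (2.17, adjusted p = 0.0401). Rab13, known for trafficking of junction proteins, was the Rab gene called higher under each of quantile normalization, median-ratio scaling and cyclic loess (adjusted p = 0.0342, 0.0112 and 0.0463). On the deposited values it was at 11.9 TPM in YFP+ M and 4.06 in YFP+ FM, against 5.29 in YFP− M and 4.22 in YFP− FM. Its YFP+ M library was the highest and the other values lay close together, and the change was not called (0.49, SE 1.07, adjusted p = 0.693). Without the YFP+ M library it was -0.18. Rab14, which links endosomes and Golgi, stood at 61.6 TPM in YFP+ M and 21.8 in YFP+ FM, against 150.2 in YFP− M and 139 in YFP− FM (-1.94, SE 0.98, adjusted p = 0.0905). Its YFP+ values were both lower, with no call. Rab10, Rab35, Rab11a and Rab11b, which act in endosomal recycling and delivery to the plasma membrane, had changes of -1.66, -1.57, -1.31 and -1.18 without passing.

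Rab genes of late endosomes, lysosomes and autophagy held no call among 8 tested on the deposited values (median change -1.78). Of all tested genes 39.5% were called lower. Rab7 (chromosome 6, 88000435 to 88013690), which directs late endosomes and phagosomes to lysosomes, was the most abundant Rab gene, at 285 TPM in YFP+ M and 262 in YFP+ FM, against 360.1 in YFP− M and 692 in YFP− FM (-0.87, SE 0.82, adjusted p = 0.362). Rab20 (chromosome 8, 11453977 to 11478499), known in macrophages as a regulator of phagosome maturation, stood at 227 TPM in YFP+ M and 239 in YFP+ FM, against 55.9 in YFP− M and 141 in YFP− FM. It was the 1 tested Rab gene with both YFP+ values above both YFP− values, where 2.5% of all tested genes showed this order. Its change was 1.38, SE 0.91, adjusted p = 0.195, so it did not pass on the deposited values, and it passed under median-ratio scaling (3.66, adjusted p = 0.00717) but not under quantile normalization (2.37, adjusted p = 0.0799) or loess (2.14, adjusted p = 0.128). As a share of all Rab TPM, which 1 factor per library does not move, Rab20 took 12.5% in YFP+ M and 20.8% in YFP+ FM against 2.46% in YFP− M and 4.50% in YFP− FM. Rab34, a regulator of lysosome position, had a change of -2.51 (adjusted p = 0.0628). Rab9 (late endosome to Golgi), Rab12 (receptor degradation), Rab24 and Rab33b (autophagy) and Rab39 (phagosomes) had changes of -1.77, -2.07, -1.24, -2.06 and -1.79, with no call.

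The promoters of Rab20 and of the 3 Rab5 genes are shown because Rab20 had the highest change of the family and the Rab5 paralogs differed in how their levels compared between the groups. Each sequence is the 250 bases before a RefSeq transcript start (GRCm38.p6), 5′ to 3′ on the gene's strand, with capitals for matches on either strand to any of 5 motifs. These were the E-box CACGTG, the PU.1-type site GAGGAAGT, the CCAAT box, the GC box GGGCGG and the TATA box TATAAA. The windows lie at chr8:11478641-11478890 (minus strand), chr17:53478984-53479233 (plus strand), chr10:128696269-128696518 (minus strand) and chr11:100738216-100738465 (minus strand).
Rab20: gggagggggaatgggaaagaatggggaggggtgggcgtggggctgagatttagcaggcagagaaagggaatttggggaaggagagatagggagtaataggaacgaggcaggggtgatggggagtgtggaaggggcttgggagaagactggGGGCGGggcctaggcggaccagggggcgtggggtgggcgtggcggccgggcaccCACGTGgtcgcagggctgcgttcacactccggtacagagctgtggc
Rab5a: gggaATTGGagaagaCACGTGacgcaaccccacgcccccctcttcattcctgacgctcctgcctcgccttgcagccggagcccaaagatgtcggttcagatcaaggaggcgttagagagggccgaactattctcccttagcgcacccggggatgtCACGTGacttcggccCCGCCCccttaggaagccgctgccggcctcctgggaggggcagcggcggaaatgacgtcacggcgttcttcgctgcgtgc
Rab5b: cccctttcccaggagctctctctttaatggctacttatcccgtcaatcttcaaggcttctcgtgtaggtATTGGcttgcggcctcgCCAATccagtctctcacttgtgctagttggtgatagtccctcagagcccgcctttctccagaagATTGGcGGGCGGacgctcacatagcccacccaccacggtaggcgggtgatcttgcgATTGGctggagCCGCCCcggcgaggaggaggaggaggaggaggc
Rab5c: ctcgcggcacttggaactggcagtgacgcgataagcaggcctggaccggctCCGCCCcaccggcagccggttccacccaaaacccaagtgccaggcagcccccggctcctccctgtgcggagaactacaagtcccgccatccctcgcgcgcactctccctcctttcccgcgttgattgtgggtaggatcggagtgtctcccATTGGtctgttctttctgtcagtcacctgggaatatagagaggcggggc
CACGTG was found 1 time in Rab20, 2 times in Rab5a and 0 times in Rab5b and Rab5c. It was present in 5.93% of 27025 such promoters, 1 per gene, and in 4 of the 47 Rab promoters matched by symbol. For a Rab gene the start nearest that in the deposited tables was taken, and for any other gene the window of lowest position. CCAAT matched 4 times in Rab5b and 1 time each in Rab5a and Rab5c. The matches are a description of these letters and no binding was measured. For Rab20 and Rab5c the RefSeq start and the start in the deposited tables were 141 and 85 bases apart.

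Among Rab genes of the endoplasmic reticulum and Golgi, 3 of 10 tested were called lower (30%, beside 39.5% of all tested genes). Their median change was -2.05. Rab6b (chromosome 9, 103112074 to 103185270), a Golgi Rab known for its expression in neurons, had the lowest change of the family, at 4.07 TPM in YFP+ M and 0.430 in YFP+ FM, against 40.4 in YFP− M and 51.6 in YFP− FM (-4.12, SE 1.15, adjusted p = 0.00303). It fell also under quantile normalization (adjusted p = 0.0451) and median-ratio scaling (0.0138) but not under loess (0.0695). The summed neuron markers moved the same way, from 16.8 to 23.3 TPM in YFP− to 3.02 to 7.05 TPM in YFP+ libraries over 10 genes, as did the microglia markers given above. Of 5 tested neuron markers only Snap25 and Stmn2 were called lower. Rbfox3 was higher in YFP+ M and FM (3.57 and 1.73 TPM against 1.12 and 1.25 in YFP− M and FM), and called higher under quantile, median-ratio and loess scaling. The part of either marker set in the Rab6b value was not tested. Its paralog Rab6a stood at 10.7 TPM in YFP+ M and 3.22 in YFP+ FM, against 41.4 in YFP− M and 16.2 in YFP− FM (-1.94, SE 1.14, adjusted p = 0.144). Rab2b, which acts between endoplasmic reticulum and Golgi, fell and was at 4.65 TPM in YFP+ M and 0.590 in YFP+ FM, against 16.9 in YFP− M and 24.6 in YFP− FM (-2.84, SE 1.11, adjusted p = 0.0329). The Golgi gene Rab30 also fell, at 2.51 TPM in YFP+ M and listed at 0 in YFP+ FM, against 15.6 in YFP− M and 6.39 in YFP− FM (-2.57, SE 0.88, adjusted p = 0.0158). Neither call remained under quantile normalization (adjusted p = 0.323 and 0.350), median-ratio scaling (0.175 and 0.113) or loess (0.420 and 0.615). Rab1 (Rab1a in RefSeq), needed for export from the endoplasmic reticulum, stood at 62.3 TPM in YFP+ M and 18.4 in YFP+ FM, against 136 in YFP− M and 179 in YFP− FM (-2.16, SE 0.98, adjusted p = 0.0619), with both YFP+ values lower. Its paralog Rab1b stood at 83.0 TPM in YFP+ M and 61.1 in YFP+ FM, against 72.3 in YFP− M and 151 in YFP− FM, with overlapping groups (-0.55, SE 0.96, adjusted p = 0.626). Rab18, found on lipid droplets, had a change of -2.49 (adjusted p = 0.0586). Rab2a and Rab19 had changes of -1.83 and -1.27 with no call. Rab43, a Golgi Rab, was uneven within the YFP+ group, at 76.0 TPM in YFP+ M and 6.49 in YFP+ FM, against 34.0 in YFP− M and 123 in YFP− FM (-1.46, SE 1.04, adjusted p = 0.229).

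Of the Rab genes of secretion and lysosome-related organelles, 3 of 10 tested were called lower (30%, beside 39.5% of all tested genes). Their median change was -0.82. Rab8b, which acts in delivery to the cell surface, fell, at 13.4 TPM in YFP+ M and 3.04 in YFP+ FM, against 63.9 in YFP− M and 81.9 in YFP− FM (-3.27, SE 1.09, adjusted p = 0.0134). Rab27a, which docks secretory granules and exosomes, fell, at 1.04 TPM in YFP+ M and 0.422 in YFP+ FM, against 6.29 in YFP− M and 5.31 in YFP− FM (-1.99, SE 0.69, adjusted p = 0.0172). Rab44, a large Rab of blood cells, was at 1.65 TPM in YFP+ M and 0.916 in YFP+ FM, against 5.60 in YFP− M and 12.4 in YFP− FM (-2.06, SE 0.88, adjusted p = 0.0497), just past the threshold. None of these calls remained under quantile normalization (adjusted p = 0.155, 0.864 and 0.989). Rab32 (chromosome 10, 10545039 to 10558207), which builds lysosome-related organelles and acts in host defence of macrophages, stood at 201 TPM in YFP+ M and 105 in YFP+ FM, against 146 in YFP− M and 247 in YFP− FM. Its groups overlapped (-0.38, SE 0.90, adjusted p = 0.718), and its share of all Rab TPM was 11% in YFP+ M and 9.14% in YFP+ FM against 6.41% in YFP− M and 7.87% in YFP− FM. Its relative Rab38 was low, at 2.31 TPM in YFP+ M and 0.151 in YFP+ FM, against 1.25 in YFP− M and 0.993 in YFP− FM (-0.12, SE 0.40, adjusted p = 0.801). Rab7l1, now named Rab29 and linked to lysosome stress, stood at 45.6 TPM in YFP+ M and 14.6 in YFP+ FM, against 46.9 in YFP− M and 32.5 in YFP− FM (-0.57, SE 1.06, adjusted p = 0.644). Rab3a, of regulated secretion, stood at 18.6 TPM in YFP+ M and 7.20 in YFP+ FM, against 13.5 in YFP− M and 14.6 in YFP− FM (-0.25, SE 1.14, adjusted p = 0.855), and Rab3d had a change of -0.75, both with overlapping groups. Rab3a was called higher, of the 4 scalings, under median-ratio scaling (1.86, adjusted p = 0.0353). Rab8a and Rab37 had changes of -1.36 and -0.88 without passing.

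In the remaining group, 1 of 3 tested was called lower (33.3%, beside 39.5% of all tested genes). Rab23, an inhibitor of Hedgehog signalling, fell at a low level, from 3.03 and 4.61 TPM in YFP− M and FM to 0.568 TPM in YFP+ M, and it was listed at 0 in YFP+ FM (-1.92, SE 0.49, adjusted p = 0.00128). Below 1 TPM in both YFP+ libraries, it passed the filter only through the YFP− libraries, so the filter fixed its direction. An exact 0 in such tables can be a failed estimate. Rab28 of the cilium and Rab40c, which carries a ubiquitin ligase motif, had changes of -1.83 and -2.10 without a call. The 12 Rab genes that did not pass the filter were Rab3b, Rab3c, Rab9b, Rab15, Rab17, Rab25, Rab26, Rab27b, Rab33a, Rab36, Rab39b and Rab40b. Their highest value in any library was 3.08 TPM, for Rab36 in YFP− FM, and Rab9b was listed at 0 in all 4. For 6 tested Rab genes (Rab2b, Rab3a, Rab5a, Rab6a, Rab10 and Rab37) the tables hold a gene on the other strand at overlapping positions, and as the sources used here do not give strand use, reads of such a pair cannot be told apart. Rab7, Rab5a, Rab11b and Rab9b have processed pseudogene copies in the GENCODE M21 annotation, so their values are uncertain where reads could be split.

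**Figure D2:**
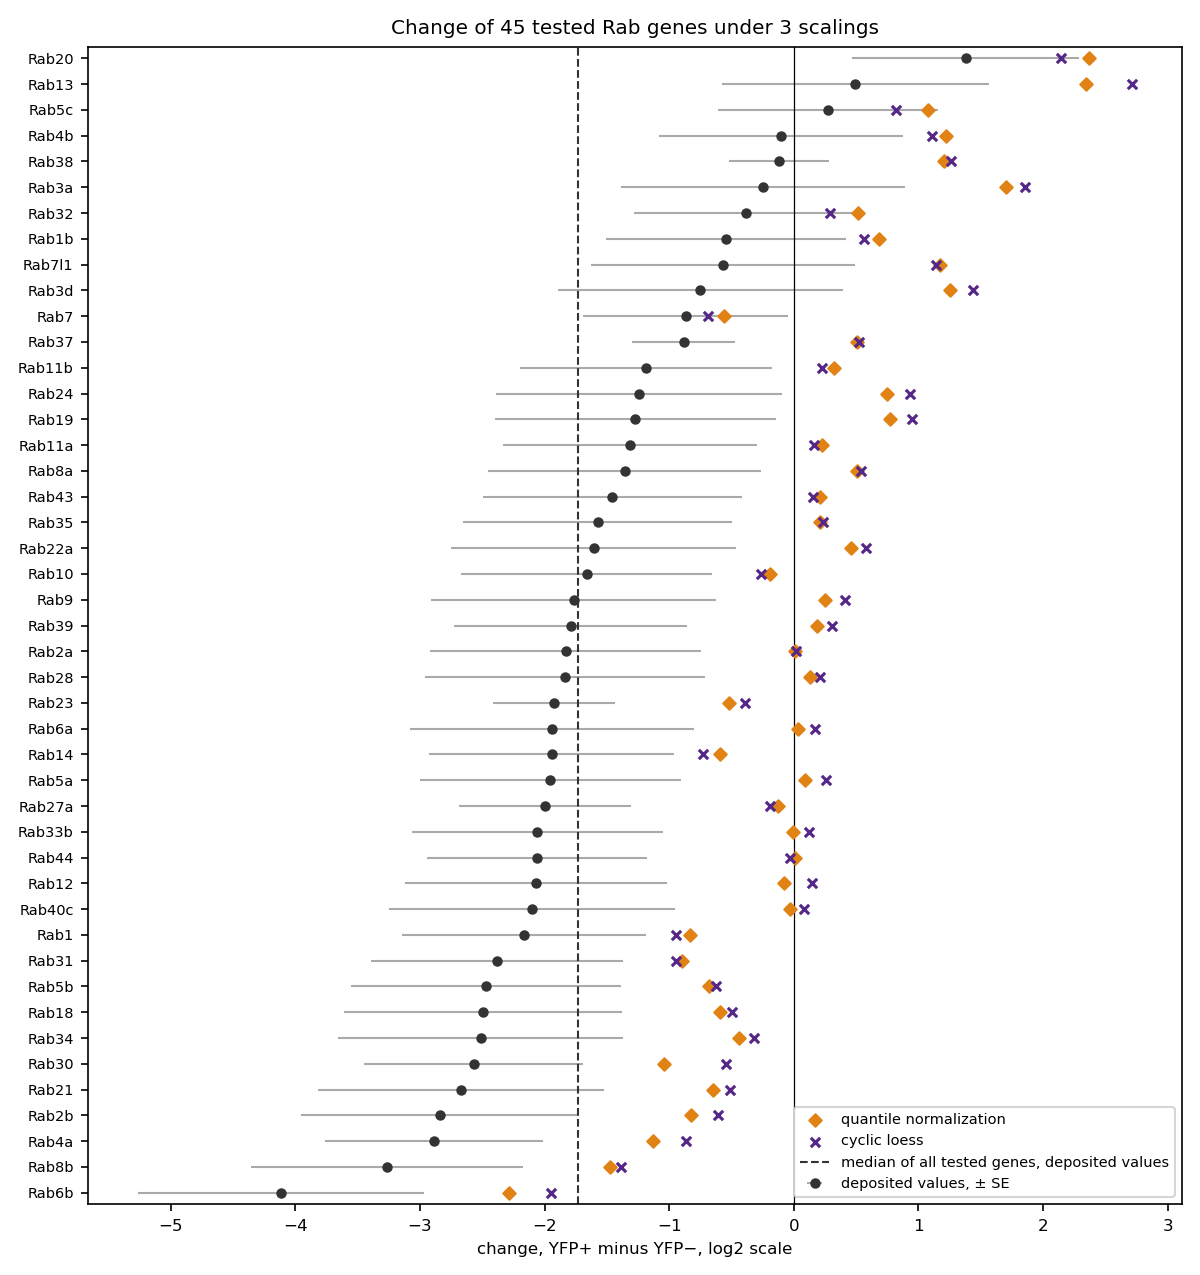
Change of each of the 45 tested Rab genes, YFP+ minus YFP−, on the deposited values (dark circles with SE), under quantile normalization (orange) and under cyclic loess (purple). The dashed line is the median of all tested genes on the deposited values, -1.73. Rab20 and Rab13 lie farthest right and Rab6b farthest left under each of the 3 scalings.

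The balance of paralogs is given as the share of each gene in the summed TPM of its Rab number. This share is free of any factor that scales a whole library, and was computed after the values were seen for the 8 numbers with at least 2 genes and at least 3 TPM in every library. In 6 of the 8 the YFP+ and YFP− shares did not overlap, and 1 paralog took a larger share in YFP+ cells. The same held for 62.2% of 368 sets of genes of one name and number over the whole tables, beside 75.0% of the Rab numbers, and the difference was not tested. Rab5c took 90.6% in YFP+ M and 97.3% in YFP+ FM, against 73.6% in YFP− M and 69.2% in YFP− FM of the Rab5 sum. Rab4b took 98.1% in YFP+ M and 99.8% in YFP+ FM, against 82.5% in YFP− M and 90.8% in YFP− FM of the Rab4 sum. Rab1b took 57.1% in YFP+ M and 76.8% in YFP+ FM, against 34.7% in YFP− M and 45.7% in YFP− FM of the Rab1 sum. In TPM these 3 genes overlapped between the groups, while Rab1, Rab4a, Rab5a and Rab5b were lower in both YFP+ libraries. Rab8a took 65.1% in YFP+ M and 69.4% in YFP+ FM, against 33.3% in YFP− M and 32.8% in YFP− FM of the Rab8 sum. Thus Rab8a was the main Rab8 transcript in both YFP+ libraries and Rab8b in both YFP− libraries. Rab6a took 72.5% in YFP+ M and 88.2% in YFP+ FM, against 50.6% in YFP− M and 23.8% in YFP− FM of the Rab6 sum, and Rab2a took 84.2% in YFP+ M and 90.9% in YFP+ FM, against 80.2% in YFP− M and 55.9% in YFP− FM of the Rab2 sum. For Rab11a and Rab11b, and for the main Rab3 genes Rab3a and Rab3d, shares overlapped between the groups. With 2 libraries a group the smallest p an exact two-sided permutation test can give is 0.33, so these shares are given without a test.

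**Figure D3:**
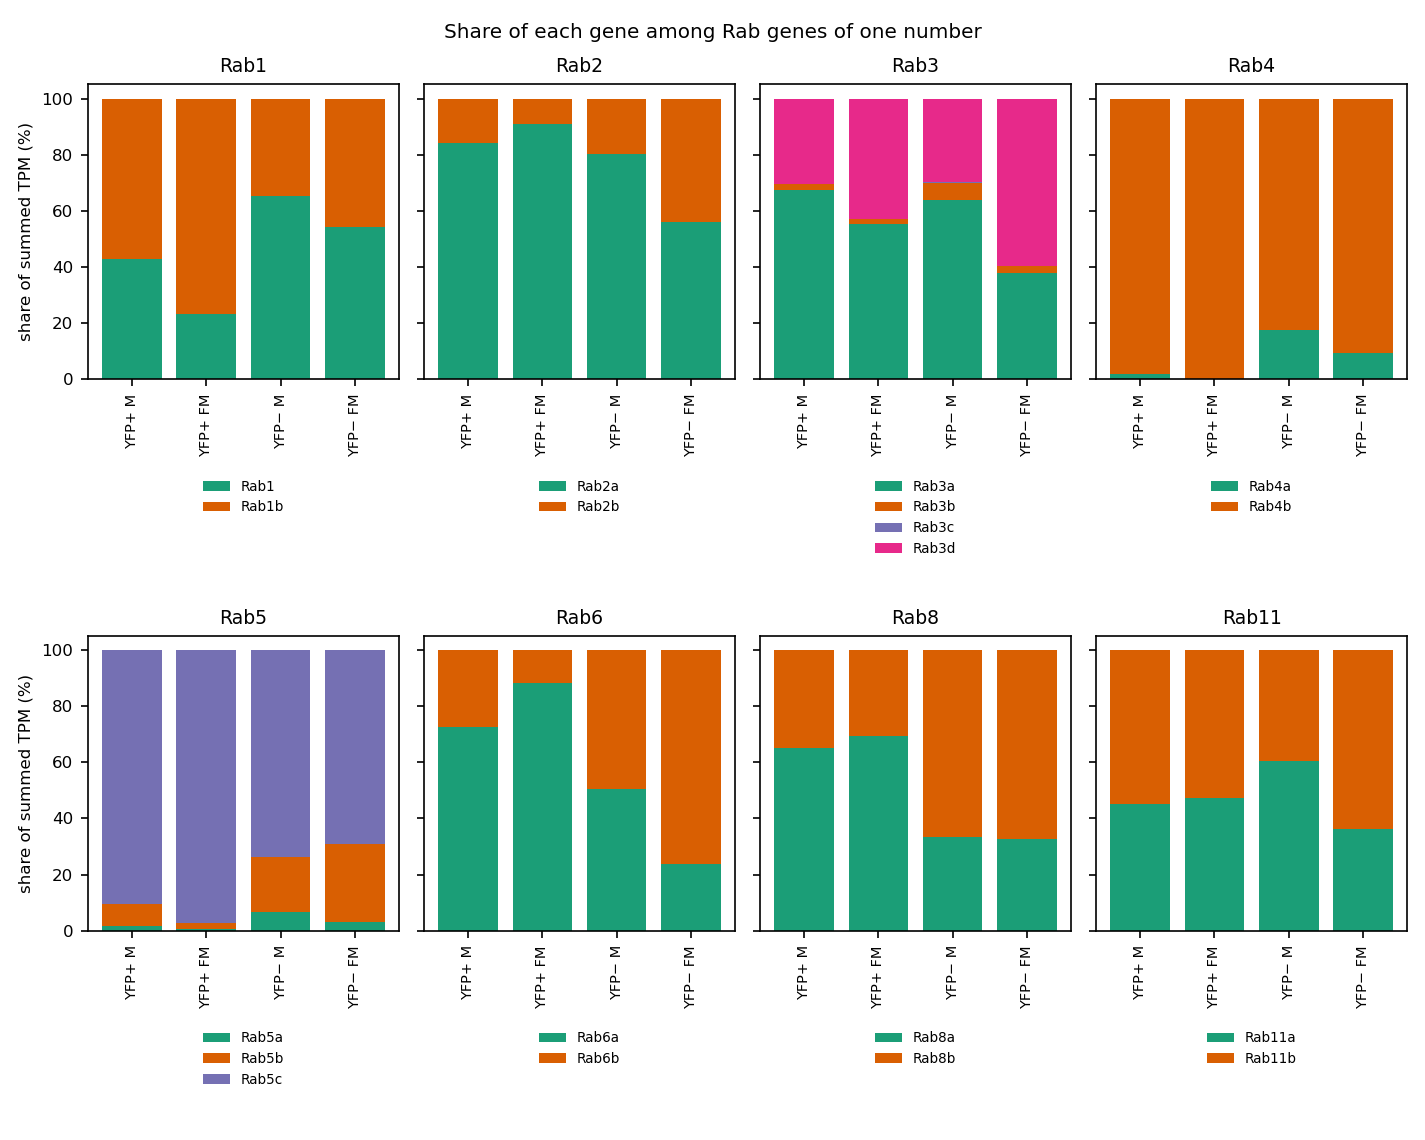
Stacked bars of the share (%) that each gene takes of the summed TPM of the Rab genes of one number, 1 bar per library and 1 panel per number. Rab5c, Rab4b, Rab1b, Rab8a, Rab6a and Rab2a take larger shares in both YFP+ bars than in both YFP− bars, while the shares of Rab11 genes overlap.

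Percentile ranks within each library, which do not depend on scaling, gave a split picture of the family. Of the 45 tested Rab genes 15 had higher ranks among the 12251 tested genes in both YFP+ libraries than in both YFP− libraries (background 24.7%) and 12 had lower ranks (background 30.1%), or 33.3% and 26.7% of the Rab genes. Rab13 ranked at the percentiles 64.0 and 64.3 in the YFP+ libraries against 24.5 and 15.2 in the YFP− libraries. Its TPM was 4.06 in YFP+ FM and 4.22 in YFP− FM, so there its rank was higher without a higher TPM. A rank also depends on how many other genes are detected. Genes with 1 TPM or more numbered 7386 in YFP+ FM and 12829 in YFP− FM, and the part of this in the ranks was not tested. Rab3a ranked at 72.8 and 73.4 in the YFP+ libraries against 47.2 and 39.7 in the YFP− libraries. Rab20 ranked at 96.1 and 97.0 in the YFP+ libraries against 81.3 and 90.1 in the YFP− libraries. At the other end, Rab6b ranked at 41.0 and 26.1 in the YFP+ libraries against 75.1 and 73.0 in the YFP− libraries. Of the 10 Rab genes called lower on the deposited values, 6 also had lower ranks without overlap. Rab21, Rab27a, Rab30 and Rab44 were called lower in TPM while their ranks overlapped between groups, a split seen after the values were examined.

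The share of genes called differed with their level. Among all tested genes under 5 TPM in the mean over the 4 libraries 68.2% were called lower, as were 2 of 4 Rab genes. Low genes are those most open to passing the filter only through the YFP− libraries, which fixes a lower direction. The part of the filter in the 68.2% was not tested. Among all tested genes with a mean of 5 to 20 TPM over the 4 libraries 33.7% were called lower and the median change was -2.13, while 5 of the 20 Rab genes in this band were called, with a median of -1.95. Between 20 and 100 TPM 25.4% of all genes and 3 of 17 Rab genes were called lower, with medians of -1.82 and -1.66. Above 100 TPM 13.4% of all genes and 0 of 4 Rab genes (Rab7, Rab5c, Rab32 and Rab20) were called lower, with medians of -0.52 and -0.05. The difference between Rab genes and other genes within a band was not tested. Across the 45 tested Rab genes Spearman's rho of change with mean TPM was 0.213, and across all 12251 tested genes it was -0.000363. These are correlations across genes that share the same 4 libraries, and genes are not independent replicates.

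**Figure D4:**
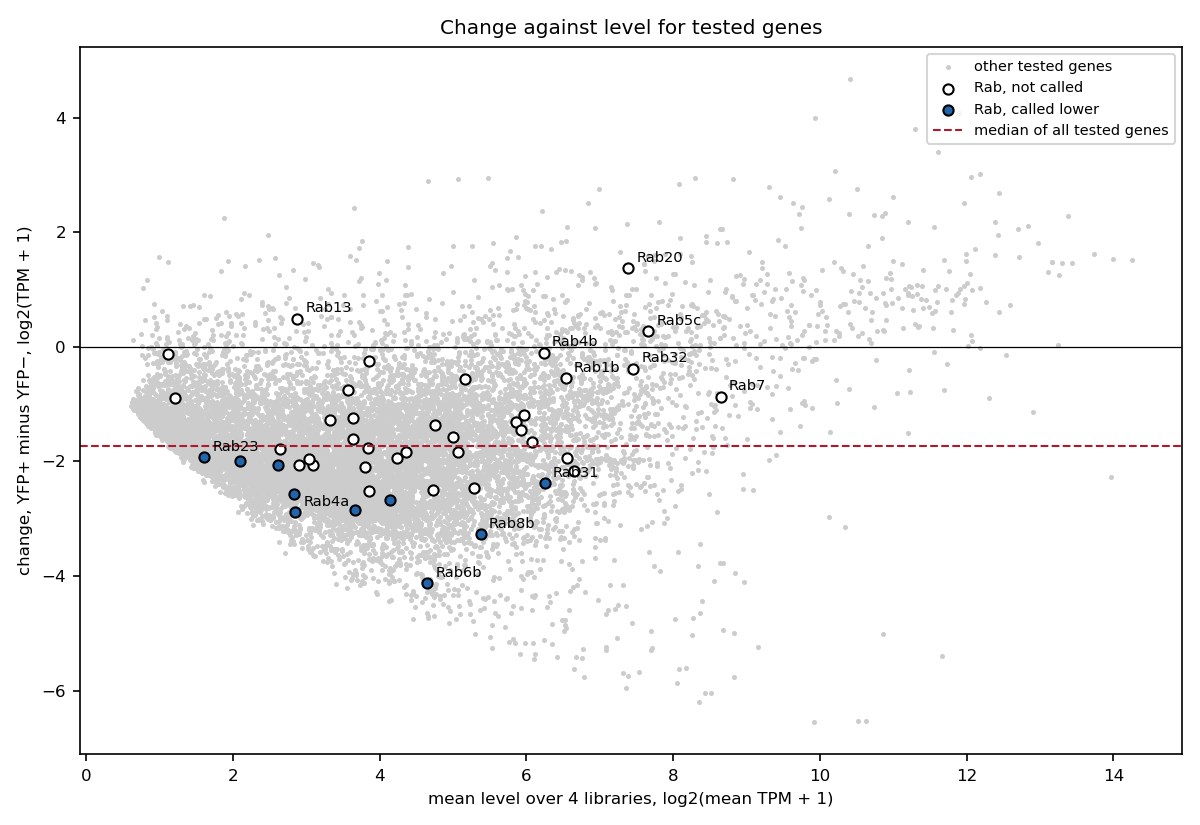
Change of each tested gene, YFP+ minus YFP−, against its mean level over the 4 libraries, with Rab genes as circles (blue where called lower) and other genes in grey. The dashed line is the median of all tested genes, -1.73, and the Rab genes spread around it from -4.12 (Rab6b) to 1.38 (Rab20).

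Transcripts for the proteins that load, unload and read Rab GTPases were called lower in a share near that of all genes. Of 112 tested genes in 5 lists limma called 0 higher, with 0 also at an unadjusted p under 0.05, and 48, or 42.9%, lower, where the background is 39.5% lower and 0.522% higher. Their median change was -2.04. Quantile normalization called 1 of the 112 higher and 1 lower, and cyclic loess 1 higher and 0 lower. Among genes for lipid attachment and membrane extraction 3 of 7 tested were called lower. Gdi2, the widely expressed GDP dissociation inhibitor, fell, at 185 TPM in YFP+ M and 77.7 in YFP+ FM, against 402 in YFP− M and 735 in YFP− FM (-2.17, SE 0.86, adjusted p = 0.0343). The escort protein gene Chm (-2.52) and the nucleotide release factor Rabif (-2.90) fell. None of these 3 calls remained under quantile normalization, median-ratio scaling or cyclic loess. Under median-ratio scaling the change of Gdi2 was 0.12 (adjusted p = 0.923). The transferase subunits Rabggta and Rabggtb had changes of -1.17 and -2.15, and the prenylated Rab acceptor Rabac1 by -0.47, with no call. Rabac1 stood at 214 TPM in YFP+ M and 201 in YFP+ FM, against 305 in YFP− M and 272 in YFP− FM.

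Exchange factors were called lower in 14 of 31 tested (45.2%, beside 39.5% of all tested genes). The most abundant was Rab3il1, an exchange factor of Rab3 and Rab8, at 53.5 TPM in YFP+ M and 31.0 in YFP+ FM, against 229 in YFP− M and 519 in YFP− FM (-3.05, SE 0.93, adjusted p = 0.00698). The Rab5 exchange factor Rin2 fell, at 22 ± 19.1 against 118 ± 39.3 TPM (SD, n = 2; -2.64, adjusted p = 0.0313). The largest falls were those of Dennd4a (-3.51), Dennd5a (-3.14) and Hps4 (-3.11), the last a subunit of the exchange factor of Rab32 and Rab38. Its partner Hps1 had a change of -0.88 (adjusted p = 0.486). Of the GTPase-activating proteins 11 of 31 tested were called lower (35.5%, beside 39.5% of all tested genes). The largest falls were those of Tbc1d14, at 17.6 TPM in YFP+ M and 2.62 in YFP+ FM, against 86.9 in YFP− M and 135 in YFP− FM (-3.73, SE 1.07, adjusted p = 0.00392), Tbc1d16 (-3.29) and Tbc1d15 (-3.12). Tbc1d17, second in abundance, had a change of -2.0 (adjusted p = 0.102).

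Effectors were called lower in 16 of 35 tested (45.7%, beside 39.5% of all tested genes). Of the tested effectors 2 stood apart in the other direction without passing on the deposited values. Rilpl2, which binds Rab8 and Rab10, was the most abundant effector, at 264 TPM in YFP+ M and 380.1 in YFP+ FM, against 85.1 in YFP− M and 127 in YFP− FM (1.60, SE 0.89, adjusted p = 0.125). Both YFP+ values lay above both YFP− values, and it passed under median-ratio scaling (3.88, adjusted p = 0.00749) but not under quantile normalization (adjusted p = 0.0643) or loess (0.114). Plekhm2, which links lysosomes to kinesin, stood at 17.7 TPM in YFP+ M and 10.2 in YFP+ FM, against 4.87 in YFP− M and 9.21 in YFP− FM (0.90, SE 1.15, adjusted p = 0.495). It was called higher under quantile normalization (adjusted p = 0.0323), median-ratio scaling (0.00551) and loess (0.0463), and is named because of these values. Melanophilin (Mlph), which ties Rab27a to myosin, fell, at 0.527 TPM in YFP+ M and 0.0305 in YFP+ FM, against 9.92 in YFP− M and 18.1 in YFP− FM (-3.52, SE 0.84, adjusted p = 0.000593), also under quantile normalization (adjusted p = 0.0377) and median-ratio scaling (0.00551) but not under loess (0.0779). Mlph too passed the filter only through the YFP− libraries, which fixed its direction on the deposited values. The same held for the called effectors Eea1, Lrrk2, Myrip, Rab11fip2, Rab11fip3, Rph3a and Sytl2. In the other lists it held for the called genes Rin1, Dennd2c, Dennd5b, Usp6nl, Tbc1d2 and Tbc1d12. The counts of lower calls in these lists include such genes. The Golgi tether Uso1 (-3.36) and the Rab7 effector Osbpl1a (-3.06) fell, and Plekhm1, an adaptor of Rab7, had a change of -0.83 (adjusted p = 0.497). Of the CORVET and HOPS complexes, which tether endosomes bearing Rab5 and Rab7, 4 of 8 genes were called lower (50%, beside 39.5% of all tested genes). These were Vps39 (-3.18), Tgfbrap1 (-2.98), Vps11 (-2.86) and Vps41 (-2.69). Quantile normalization called 0 of the 8 lower.

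**Figure D5:**
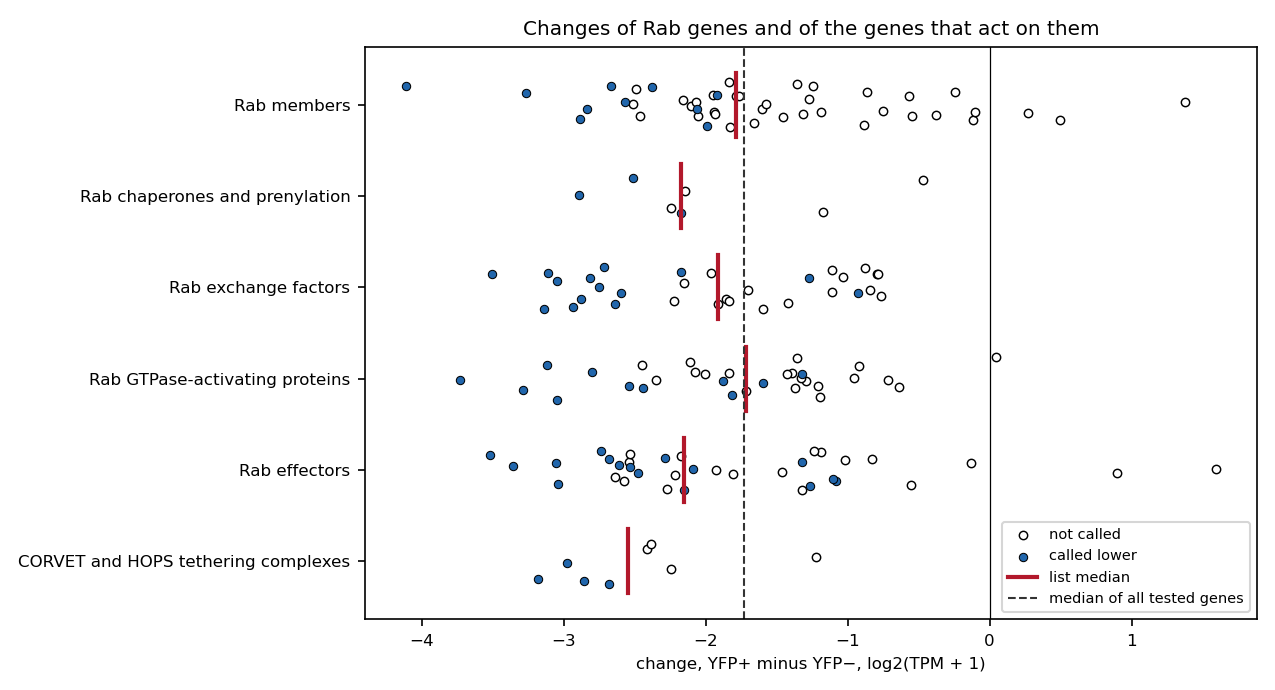
Change on the deposited values, YFP+ minus YFP−, of the 45 tested Rab genes and of tested genes in 5 lists of their regulators, effectors and tethers, 1 point per gene (blue where called lower), with the list median in red. The list medians lie between -2.55 and -1.72 and the median of all tested genes, dashed, at -1.73.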

How the data were processed

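Sorted YFP+ and YFP− cells, labelled liver macrophages, gave 1 gene table per library. The submitters' processing notes name HISAT, GRCm38 and mm10, without their roles. The sources used here give no version, strand use or abundance program. Per the file headers, the deposited tables give TPM, FPKM and mean coverage for each gene. Depth in reads is unknown. Rows sharing a gene name were summed (166 names, 0 of them Rab). A gene was tested if 2 or more libraries reached 1 TPM. The test was limma's (version 3.58.1, run in R 4.3.3) on log2(TPM + 1), with an empirical Bayes variance trend (prior degrees of freedom infinite, 2 libraries a group), Benjamini-Hochberg adjusted over all 12251 tested genes at 0.05. The fit was tested on simulated data. Alternatives tried were another pseudocount (0.1), another filter (5 TPM, or none), quantile, median-ratio and loess scaling, FPKM, a block, no variance trend and leaving out each library. Per-library values are given for the 8 Rab genes of highest mean TPM, the 6 of largest change in each direction and genes called under 4 scalings (none was). Regulator genes named are the tested chaperone genes (1 is not reported here) and, in each other list, up to 3 called genes of largest change and 2 of highest level. Further genes shown beside them were chosen after their values were seen. The members and lists were chosen with earlier results of these data known. Promoters are RefSeq's (GRCm38.p6), and 47 members matched by symbol.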

Additional observations from a re-analysis of the deposited data

Results flagged for a closer look

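For 9 of the 45 tested Rab genes (20%) the YFP+ minus YFP− difference had opposite signs in the M and the FM libraries, beside 13.3% of all tested genes. With 1 library in each of the 4 cells the difference between M and FM was not tested. All 9 were higher in YFP+ for M and lower for FM. Rab43 stood apart most, with changes of 1.14 and -4.05 on the log2(TPM + 1) scale in M and FM, which differ by 5.19. Rab3d, of secretory granules, differed by 2.25 (0.37 and -1.88). The lysosome-related organelle genes Rab32 and Rab38 differed by 1.69 and 1.35. Rab1b differed by 1.48, Rab3a by 1.36 and Rab13 by 1.08. Rab5c and Rab4b, the main genes of their numbers, differed by 0.73 and 0.59. The median change of all tested genes also differed, at -1.01 in M and -2.48 in FM, and its part in these differences was not tested.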

How the results depend on the processing

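The 10 lower calls became 5 with a pseudocount of 0.1, 1 under quantile normalization, 1 under median-ratio scaling, 0 under cyclic loess and 21 without a variance trend. They were 8 without a filter, 7 with a filter at 5 TPM and 7 on FPKM. Of all tested genes 25.1% were lower with a pseudocount of 0.1, 46.0% without a variance trend (Rab genes 46.7%), 28.7% without a filter, 31.6% at 5 TPM and 33.2% on FPKM. Higher calls went from 0 to 1, 5 and 1 under quantile, median-ratio and loess scaling. The median change of -1.79 reversed to 0.0872, 0.275 and 0.166 under these. Leaving out each library gave 1 to 30 lower calls and medians of -2.37 to -1.0. For the 112 regulator genes, 48 lower calls became 1, 5 and 0 and 0 higher calls became 1, 4 and 1 under the 3 scalings, FPKM gave 1 higher (0.98% of all genes), and leaving out each library gave 4 to 80 lower, or 3.57% to 71.4% beside 7.06% to 67.5% of all genes. Leaving 1 library in a group assumes that it varies like the others. The cause of these moves was not tested. The labels give no pairing, so the title start was not a block in the main fit. The deviations of same-start libraries had a correlation of -0.01 on the deposited values. This cannot exclude pairing, because it was taken before any scaling of the libraries. With the title start as a replicate block 1 Rab gene (Rab23) and 11 regulator genes were lower, beside 14.1% of all tested genes. Quantile normalization with the replicate block gave 4 Rab genes higher and 2 lower, 4 and 6 regulator genes, and a median of 0.0872, where 6.14% of all genes were higher and 5.31% lower (752 and 650, against 148 and 205 without the block). Single genes also reversed. Under quantile, median-ratio and loess scaling Rab1b stood at 0.688, 1.73, 0.565, Rab32 by 0.515, 1.91, 0.288, Rab38 by 1.21, 0.7, 1.26, Rab3a by 1.7, 1.86, 1.86 and Rab4b by 1.22, 2.17, 1.11, with the quantile values repeated under its replicate block. On FPKM, Rab32, Rab38, Rab3a and Rab4b stood at 0.162, 0.102, 0.246 and 0.434. Median-ratio scaling gave Rab1 0.0987, Rab14 0.319 and Rab7 1.43, and quantile normalization Rab44 0.0126. Without YFP+ FM, Rab32, Rab38, Rab3a and Rab4b stood at 0.0831, 0.643, 0.384 and 0.0341, and without YFP− FM Rab32 and Rab4b by 0.000233 and 0.0576. Over leaving out each library Rab13 ranged from -0.179 to 1.17 (lowest without YFP+ M), Rab5c from -0.000274 (without YFP− M) to 0.543, and the lowest values of Rab32, Rab38, Rab3a and Rab4b were -0.843, -0.88, -0.876 and -0.259. Summed Rab levels in YFP+ were 0.55 of those in YFP− in TPM and 0.80 in FPKM.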

Other observations

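Among the 47 Rab promoters matched in RefSeq, GGGCGG was present in 72.3%, beside 32.7% of all 27025 promoters of the same length and 42.3% of the 17492 of protein-coding genes. CCAAT was present in 46.8% of Rab promoters and 34.2% of all. TATAAA was present in 4.26% of Rab promoters and 12.9% of all, and GAGGAAGT in 4.26% and 2.46%. Both strands were searched, the differences were not tested, and a match is a description of the letters only. The Rab windows and those of other genes were chosen by different rules, as given above, so these shares are not of like windows. The Rab7 and Rab17 windows start 31327 and 1953 bases from the starts in the deposited tables.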
